A study of Mus musculus with 6 samples.

Results

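The histone genes on this array were examined by protein class (H1, H2A, H2B, H3 and H4) and by gene cluster in the mouse macrophage cell line RAW264.7. They were chosen by name alone: every non-control probe whose gene name began with Hist1h to Hist4h, H1f, H2af or H3f3. This gave 77 probes for 64 genes, out of 55681 probes on the array, and 58 of the 64 genes were bright enough to be tested. The AEPS group was RAW264.7 cells given 50 µg/ml of AEPS, a polysaccharide from the roots of Actinidia eriantha (a kiwifruit relative), for 4 h. The control group was the same line left in DMEM medium for the same 4 h. Each group held 3 samples by the labels, and RAW264.7 is a single transformed line, so no primary macrophages were measured.

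Histones package DNA: H2A, H2B, H3 and H4 form the nucleosome core and H1 binds the linker DNA between cores. In mammals most histone genes lie in clusters and are transcribed mainly in S phase, when new DNA needs packaging, and their mRNAs end in a conserved 3′ stem-loop in place of a poly(A) tail. Slbp, the stem-loop binding protein, binds that hairpin and is needed for the processing, translation and stability of these mRNAs. Replacement histones such as the products of H3f3a and H3f3b are encoded outside the clusters, are made through the whole cell cycle and have polyadenylated mRNAs.

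The stem-loop was present in the probes of 6 of the genes, and the windows around it are shown because this hairpin marks the 3′ end of replication-type histone mRNA. The match ended at base 54 to base 57 of the probe in 5 of the 6, and at base 22 in Hist2h2aa1. Capitals mark the match to the histone 3′ stem-loop consensus, and the sequences are from the array's own annotation.
Hist1h3a: ccaaaGGCTCTTTTCAGAGCCaca
Hist1h3g: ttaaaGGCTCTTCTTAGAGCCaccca
Hist1h3i: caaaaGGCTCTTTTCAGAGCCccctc
Hist1h4m: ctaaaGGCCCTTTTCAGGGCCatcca
Hist2h2aa1: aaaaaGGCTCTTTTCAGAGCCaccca
Hist2h2bb: caaaaGGCTCTTTTCAGAGCCacttt
Over the whole array 7 of 55681 probes held the consensus, 6 of them on histone genes. A second set of probes is shown because 5 of them carry the same stretch of H2A coding sequence. These probes are 60 bases long, and capitals mark the run of 29 bases that the first 5 have in common. The Hist2h2ab probe, from the same stretch of coding sequence, does not hold the run.
H2afj: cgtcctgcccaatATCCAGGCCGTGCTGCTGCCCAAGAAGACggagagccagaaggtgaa
Hist1h2af: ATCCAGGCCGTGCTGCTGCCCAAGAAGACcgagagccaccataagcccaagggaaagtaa
Hist1h2ah: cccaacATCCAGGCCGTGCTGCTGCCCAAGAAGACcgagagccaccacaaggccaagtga
Hist2h2aa2: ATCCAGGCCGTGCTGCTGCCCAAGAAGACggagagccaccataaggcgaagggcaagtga
Hist2h2ac: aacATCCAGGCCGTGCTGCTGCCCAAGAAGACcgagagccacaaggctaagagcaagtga
Hist2h2ab: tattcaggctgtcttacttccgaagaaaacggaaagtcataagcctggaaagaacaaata

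Within each group, the scanner file of replicate 1 was the same, value for value, as that of replicate 2, and the pair was averaged. This gave n = 2 distinct arrays per group, with 1 AEPS and 1 control array on each of 2 slides. A value table deposited by the authors gave 3 distinct samples per group. Its first pair of samples in each group matched the scanner arrays in rank and its replicate 3 matched none of them, so the table is not an independent experiment. The labels do not say that samples came from separate cultures, so the p-values reflect only the spread of these samples and that spread may be technical. Between 55.4% and 58.7% of 59305 non-control spots were well above background, no non-control spot was saturated, and the number of arrays limits the precision. All 10 macrophage markers examined were above background on every array, against 1 of 5 markers of T cells, 2 of 5 of B cells, 1 of 5 of fibroblasts and 0 of 5 of epithelium. Fewer cells in S phase and less histone mRNA per cell cannot be told apart in such bulk RNA.

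Most clustered histone genes read lower with AEPS relative to the rest of the array. Values below are relative log2 signals (log2 of the processed signal minus the array's 75th percentile), and changes are AEPS minus control on that scale with the SE of limma's fit. Of the 58 tested genes, 16 fell and 1 rose at a Benjamini-Hochberg adjusted p of 0.05, that is 27.6% lower, against 2.94% lower and 4.18% higher of all 25877 features tested. All 16 lay in the clusters. The 1 that rose, H2afy3, passed the brightness filter through the AEPS arrays alone, which largely fixes its direction. The median change of the 58 was -0.78, against -0.19 over all features. The slide serves as a replicate block because same-numbered samples deviated together, and with it 38 histone genes fell and 3 rose (65.5% lower, against 16.8% lower and 13.0% higher of all features). By the authors' table, 37 fell and 3 rose (63.8% lower, against 16.4% lower and 17.1% higher of all features). The 16 genes were among the 38 and among the 37. The 38 and the 37 include 8 and 6 H2A genes whose probes have a run of bases in common and are not separate measurements. With the replicate number as a block in the table, 43 fell and 4 rose (against 26.3% lower and 23.5% higher of all features): H1f0, H2afv, Hist1h1t, Hist1h2ae, Hist1h2ak and Hist1h2bg were added to those that fell and H2afz to those that rose. In 45 of the 58 genes both AEPS arrays read below both control arrays (77.6%, against 38.0% of all features), and in the table all 3 AEPS samples read below all 3 control samples in 40 (69.0%, against 24.7%). The calls depend on each single scanner array: leaving out any of them gave far fewer histone genes lower, and not only genes among the 16. Hist3h2bb-ps, not among the 16, was called lower without the first AEPS array. Its remaining AEPS array was below background.

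**Figure D1:**
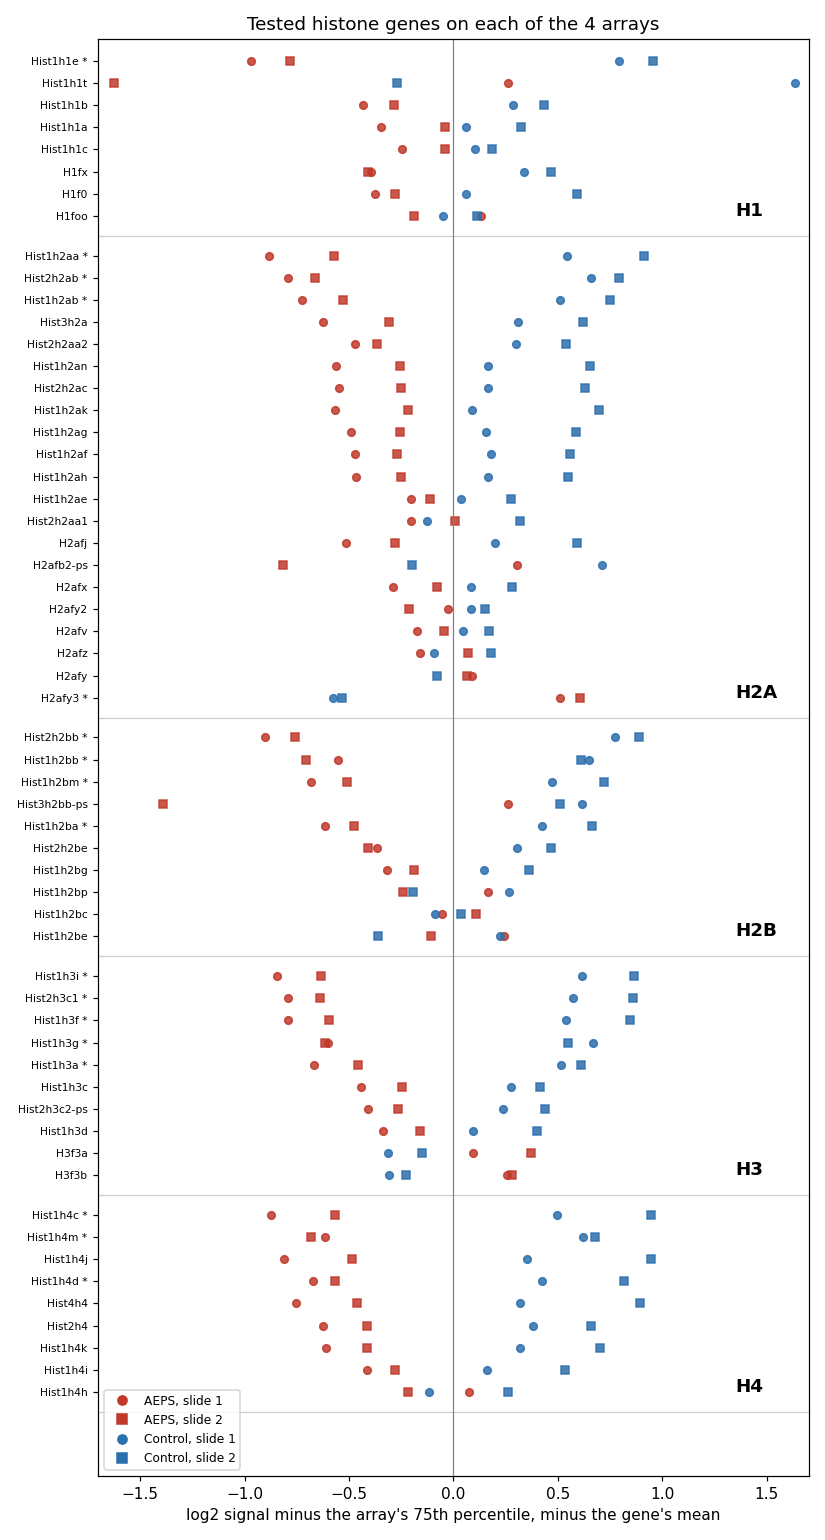
Each row is 1 of the 58 tested histone genes, grouped by class, and each point is 1 array; the horizontal axis is the relative log2 signal minus the gene's mean, so levels of different genes are not set against each other. Red points are AEPS and blue points control arrays (circles slide 1, squares slide 2), and an asterisk marks an adjusted p under 0.05. In the clustered H3 genes and most clustered H4 and H2A genes both red points sit left of both blue points, while H3f3a, H3f3b and H2afy3 show the opposite order.

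The scale matters for these calls. When arrays were scaled to the spike-in controls, RNAs added in fixed amounts, the median change of all features moved by 0.63 to 0.44, and 1 histone gene fell (Hist1h1e) and 1 rose (H2afy3), against 0.321% lower and 11.0% higher of all features. On that scale 38 of the 58 genes had a negative change. This scaling moves all features of an array alike, so it leaves a gene's place relative to the other features as it was, and 48 of the 58 lay below the median of all features. The changes given below are on the scale of the 75th percentile unless another is named.

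The linker histone H1 was represented by 8 tested genes, of which 1 fell and 0 rose, with a median change of -0.69, and with the block 4 fell, while the authors' table gave 5. These are 12.5%, 50% and 62.5% lower, against 2.94%, 16.8% and 16.4% of all features. Hist1h1e (H1f4 in RefSeq) read 5.71 and 5.90 on the AEPS arrays, against 7.48 and 7.64 on the control arrays. The groups did not overlap, and the change of -1.75 ± 0.15 (SE, n = 2 arrays per group; adjusted p = 0.0239) is 3.37-fold lower and the lowest change among the 58 tested histone genes. In the authors' table it read 14.15, 14.20 and 14.26 in AEPS samples, against 15.89, 15.82 and 15.97 in control samples (log2), a change of -1.69 (adjusted p = 0.000177). Hist1h1e was also the histone gene that fell under spike-in scaling, by 1.12.

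The other clustered H1 genes changed less. Hist1h1b read 6.06 and 6.21 on AEPS arrays, against 6.78 and 6.93 on control arrays (change -0.72 ± 0.15, adjusted p = 0.0675), and it fell with the block (adjusted p = 0.0346) and in the table (-0.64, adjusted p = 0.00132). Hist1h1a and Hist1h1c had changes of -0.38 and -0.29 on the scanner arrays, past the threshold in neither scanner fit, and fell in the table by 0.42 and 0.26. Hist1h1t, the testis H1 gene, read -0.39 and -2.28 on AEPS arrays, against 0.98 and -0.92 on control arrays. Its groups overlap, because slide 2 read lower than slide 1 in both groups. Within slides the difference was -1.37 and -1.36, and it fell with the block (adjusted p = 0.0337) but was not called without it (adjusted p = 0.381).

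None of the tested H1 genes outside the clusters was called on the scanner arrays without the block. H1fx, a replication-independent H1 gene, read -1.59 and -1.60 on AEPS arrays, against -0.86 and -0.73 on control arrays, without overlap (change -0.80 ± 0.14, adjusted p = 0.053). It fell with the block (adjusted p = 0.0354) and in the table (-0.76, adjusted p = 0.00571). H1f0, which is linked to differentiated and resting cells, had a change of -0.65 ± 0.23 (adjusted p = 0.15) and H1foo, the oocyte form, of -0.06 ± 0.18 (adjusted p = 0.836). H1fnt and Hist1h1d were not well above background on enough arrays to be tested.

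Among the 21 tested H2A genes, 3 fell and 1 rose, with a median of -0.74, and with the block 12 fell and 1 rose, while 11 fell and 1 rose in the authors' table with a median of -0.31. The shares lower were 14.3%, 57.1% and 52.4%, against 2.94%, 16.8% and 16.4% of all features. Of those that fell with the block and in the table, 8 and 6 have probes with a run in common. These are described below and are not separate measurements. The 3 that fell were Hist1h2aa, Hist1h2ab and Hist2h2ab. Hist2h2ab (H2ac21), whose probe lacks the shared run printed above, read -1.17 and -1.04 on AEPS arrays, against 0.28 and 0.42 on control arrays, a change of -1.45 ± 0.14 (adjusted p = 0.027). Hist1h2aa, the testis H2A gene, read 0.15 and 0.46 with AEPS, against 1.57 and 1.94 in control, a change of -1.45 ± 0.21 (adjusted p = 0.0437). Hist1h2ab read 7.63 and 7.82 with AEPS, against 8.86 and 9.10 in control, a change of -1.26 ± 0.17 (adjusted p = 0.0387). The groups did not overlap in any of the 3.

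A set of 8 bright H2A probes had nearly equal values and changes. They belong to Hist1h2af, Hist1h2ag, Hist1h2ah, Hist1h2ak, Hist1h2an, Hist2h2aa2, Hist2h2ac and H2afj, and 26 of their 28 pairs have an identical run of 17 to 42 bases in common. Their values ran from 9.53 to 10.27 over both AEPS arrays, against 10.25 to 11.07 over both control arrays. Each gene's own groups did not overlap on the scanner arrays, and the changes lay between -0.84 (Hist2h2aa2) and -0.72 (Hist1h2ah). Probes with a run in common may bind each other's transcripts, so these are not 8 separate measurements. None of the 8 fell without the block, 8 fell with it and 6 fell in the table.

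The size of that shift differed between the sources. In the authors' table the 8 changes lay between -0.43 and -0.17, and under quantile normalization of the scanner arrays between -0.37 and -0.10. The table's change was 0.39 to 0.55 above the scanner change in these 8 genes, and table minus scanner ran from -0.25 to 0.35 in the other 50. Hist1h2ah read 18.95, 19.09 and 18.97 in the table's AEPS samples, against 19.09, 19.21 and 19.21 in control samples, so the groups touched there. A second Hist1h2ak probe outside the run gave -1.06 on the scanner arrays and -1.02 in the table, against -0.79 and -0.40 for the brighter probe with the run. Hist2h2aa1, a near copy of Hist2h2aa2, had a change of -0.19 ± 0.22 (adjusted p = 0.568) on a probe that starts in the 3′ end, and Hist1h2ae one of -0.31 ± 0.16 (adjusted p = 0.252) on the scanner arrays, with a fall in the table with the block (adjusted p = 0.0207).

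**Figure D2:**
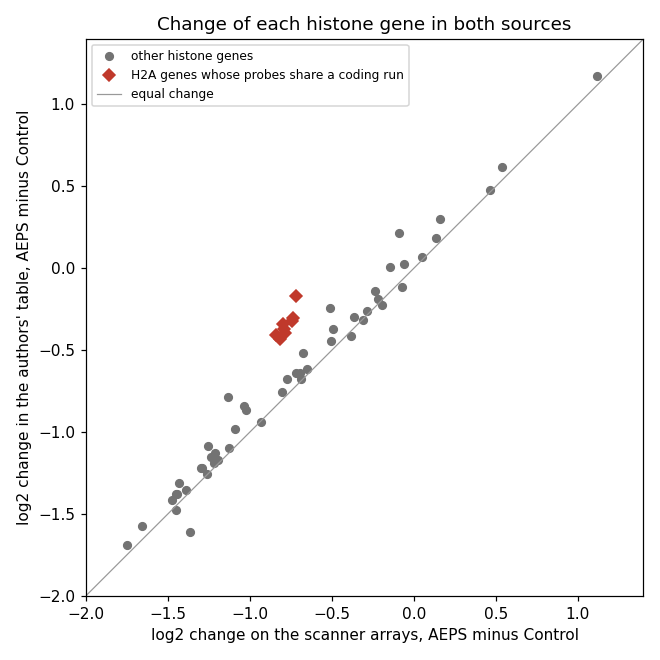
Each point is 1 tested histone gene; the horizontal axis is its log2 change (AEPS minus control) on the scanner arrays and the vertical axis that in the authors' table. Red diamonds are the 8 H2A genes whose probes have the coding run in common, between -0.84 and -0.72 on the scanner arrays and between -0.43 and -0.17 in the table; the other genes lie nearer the line of equal change.

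Of the H2A variants outside the clusters, none fell on the scanner arrays without the block, and H2afj fell with it. H2afz, which encodes the variant found beside transcription start sites, read 9.06 and 9.29 on AEPS arrays, against 9.13 and 9.40 on control arrays (change -0.09 ± 0.18, adjusted p = 0.754), and its second probe gave 0.09. In the table all 3 of its AEPS samples read above all 3 control samples, with a change of 0.21 (adjusted p = 0.0665 without the block and 0.0433 with it), so its direction depends on the scaling. H2afv, the other gene for this variant, had -0.22 ± 0.14 (adjusted p = 0.352), and in the table it fell with the block (adjusted p = 0.0381). H2afx, whose product is phosphorylated at DNA breaks, had -0.37 ± 0.16 (adjusted p = 0.216), and in the table it fell by 0.30 (adjusted p = 0.032). H2afj had -0.79 ± 0.21 (adjusted p = 0.0946 without the block and 0.0359 with it) on the probe with the shared run and -0.63 on its other probe, and it fell in the table (adjusted p = 0.0107).

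The macroH2A genes encode H2A forms with a large extra domain. H2afy, with 1 control spot left out as an outlier on the first slide, read 4.61 and 4.58 on AEPS arrays, against 4.44 on the second control array, a change of 0.16 ± 0.18 (adjusted p = 0.592). Its other probes gave 0.19 and 0.23. H2afy2 had -0.24 ± 0.15 (adjusted p = 0.327). H2afy3, named Macroh2a3 in RefSeq, rose: it read -3.43 and -3.33 on AEPS arrays and was dim on both control arrays (not well above background), measured there at -4.51 and -4.47. With AEPS its signal was 2.16-fold its own control signals by limma (adjusted p = 0.0337), which is an estimate and not a lower bound. Those control signals exceeded the lowest signal called above background on each control array. H2afy3 passed the brightness filter through the AEPS arrays alone, which largely fixes its direction. Under normexp background correction its change was -0.06. The pseudogene H2afb2-ps had -0.51 ± 0.53 (adjusted p = 0.538), and Hist1h2ac and H2afb1 were too dim to be tested.

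Among the 10 tested H2B genes, 4 fell and 0 rose (40% lower, against 2.94% of all features), with a median of -0.93. The block gave 6 that fell (60%, against 16.8%), and the table gave 5 (50%, against 16.4%). Hist2h2bb (H2bc18) read 4.07 and 4.21 on AEPS arrays, against 5.74 and 5.86 on control arrays, a change of -1.66 ± 0.14 (adjusted p = 0.0232), or 3.16-fold lower. Its table values were 12.55, 12.56 and 12.51 in AEPS samples, against 14.16, 14.12 and 14.06 in control samples (change -1.57, adjusted p = 0.000141). Both sources separate the groups without overlap.

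Hist1h2bb read -1.67 and -1.82 with AEPS, against -0.47 and -0.50 in control, a change of -1.26 ± 0.14 (adjusted p = 0.0307). Hist1h2bm read 4.29 and 4.46 with AEPS, against 5.44 and 5.69 in control, a change of -1.19 ± 0.17 (adjusted p = 0.0411). Hist1h2ba, the testis H2B gene, read 3.23 and 3.37 with AEPS, against 4.27 and 4.51 in control, a change of -1.09 ± 0.16 (adjusted p = 0.0447). The groups of these 3 genes did not overlap either.

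Some H2B genes showed little difference. Hist1h2be had the highest change of the class at 0.14 ± 0.27 (adjusted p = 0.753), followed by Hist1h2bc at 0.05 ± 0.15 (adjusted p = 0.824) and Hist1h2bp at -0.07 ± 0.25 (adjusted p = 0.856), and the groups overlapped in all 3. Hist2h2be and Hist1h2bg had -0.78 and -0.51, fell with the block (adjusted p = 0.0387 and 0.0428), and of them Hist2h2be also fell in the table. Hist3h2bb-ps had -1.13 ± 0.60 (adjusted p = 0.272), with 1 of its AEPS arrays below background. Hist1h2bq and Hist3h2ba were too dim to be tested.

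Among the 10 tested H3 genes, 5 fell and 0 rose (50% lower, against 2.94% of all features), with a median of -0.91. With the block 8 fell and 2 rose (80% lower, against 16.8%). The same 8 and 2 passed in the authors' table (80% lower, against 16.4%): the 8 clustered genes fell and H3f3a and H3f3b rose. The 5 were Hist1h3a, Hist1h3f, Hist1h3g, Hist1h3i and Hist2h3c1. Hist1h3i, with the stem-loop in its probe, read 0.34 and 0.55 on AEPS arrays, against 1.79 and 2.04 on control arrays (change -1.48 ± 0.17, adjusted p = 0.0327). Hist2h3c1 read 4.50 and 4.65 with AEPS, against 5.86 and 6.15 in control (change -1.43 ± 0.17, adjusted p = 0.0341). In both genes the groups were well apart.

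Hist1h3f read 0.76 and 0.96 with AEPS, against 2.10 and 2.41 in control (change -1.39 ± 0.18, adjusted p = 0.0379). Hist1h3g read 1.38 and 1.36 with AEPS, against 2.65 and 2.52 in control (change -1.22 ± 0.13, adjusted p = 0.0307). Hist1h3a read -0.78 and -0.56 with AEPS, against 0.41 and 0.50 in control (change -1.13 ± 0.15, adjusted p = 0.0391). The remaining 3 clustered H3 genes, Hist1h3c, Hist2h3c2-ps and Hist1h3d, had -0.69, -0.68 and -0.50 without a call. They fell with the block and in the table, Hist1h3d by 0.37 there, and Hist1h3d alone of the 8 turned to a positive change, 0.13, under spike-in scaling.

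The replacement H3 genes went the other way. H3f3b read 7.73 and 7.76 on AEPS arrays, against 7.17 and 7.25 on control arrays, a change of 0.54 ± 0.13 (adjusted p = 0.0854; 0.0397 with the block). In the authors' table it read 16.20, 16.04 and 15.93 in AEPS samples, against 15.58, 15.46 and 15.28 in control samples (change 0.62, adjusted p = 0.012). H3f3a read 5.85 and 6.13 with AEPS, against 5.44 and 5.60 in control, a change of 0.46 ± 0.17 (adjusted p = 0.16; 0.0494 with the block), and rose by 0.48 in the table (adjusted p = 0.0112). The groups of both genes did not overlap in either source. Their other probes pointed the same way, at 0.68 and 1.04 for H3f3b and 0.44 for H3f3a, and under spike-in scaling the changes were 1.17 and 1.09 against a median of 0.44 over all features.

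Among the 9 tested H4 genes, 3 fell and 0 rose (33.3% lower, against 2.94% of all features). Their median was -1.22, against -1.17 for the clustered H3 genes. With the block 8 fell (88.9%, against 16.8%), and the table also gave 8 (88.9%, against 16.4%). Hist1h4c read 2.01 and 2.32 on AEPS arrays, against 3.38 and 3.83 on control arrays (change -1.44 ± 0.23, adjusted p = 0.0495). Hist1h4m read -0.11 and -0.18 with AEPS, against 1.12 and 1.18 in control (change -1.30 ± 0.13, adjusted p = 0.0273). Hist1h4d read 6.88 and 6.98 with AEPS, against 7.97 and 8.37 in control (change -1.24 ± 0.19, adjusted p = 0.047). The arrays of the groups were apart in all 3.

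Hist1h4j, Hist4h4, Hist2h4, Hist1h4k and Hist1h4i had changes of -1.29, -1.22, -1.04, -1.02 and -0.69, none past the threshold on the scanner arrays without the block, and each past it with the block and in the table. The genes Hist1h4i, Hist1h4k and Hist2h4 have 2 probes each, which gave -0.69 and -1.05, -1.02 and -1.39, and -1.04 and -0.83. H4 proteins are nearly identical, so probes on the coding sequence of these genes may bind more than 1 transcript. Hist1h4h was the exception, at -0.15 ± 0.21 (adjusted p = 0.664) on the scanner arrays and 0.01 (adjusted p = 0.974) in the table.

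**Figure D3:**
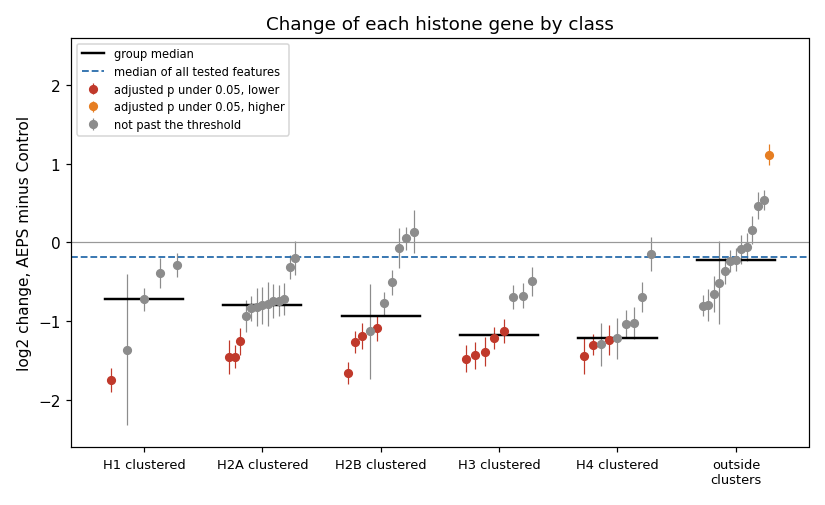
Points are the log2 changes (AEPS minus control, vertical axis) of single histone genes with the SE of limma's fit, by class for clustered genes and together for genes outside the clusters; black lines are group medians and the dashed line the median of all features, -0.19. Red points fell and the orange point rose at an adjusted p of 0.05; clustered H4 genes have a median of -1.22, clustered H3 genes one of -1.17 and genes outside the clusters a median of -0.22.

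By cluster, the fall was seen in both large clusters. Of 33 tested genes of the Hist1 cluster on chromosome 13, 13 fell (median -0.82), and of 9 tested genes of the Hist2 cluster on chromosome 3, 3 fell (median -0.84). With the block these counts were 26 and 8, and the authors' table gave 24 and 8. The shares lower were 39.4%, 78.8% and 72.7% in Hist1 and 33.3%, 88.9% and 88.9% in Hist2. Of all features 2.94%, 16.8% and 16.4% were lower in these 3 fits. No gene of either cluster rose in any of the 3 fits. In Hist3, Hist3h2a read 0.65 and 0.97 on AEPS arrays, against 1.59 and 1.90 on control arrays (change -0.93 ± 0.20, adjusted p = 0.0732), and it fell with the block and in the table (-0.94, adjusted p = 0.00718). Hist4h4, the single Hist4 gene, read 5.22 and 5.50 with AEPS, against 6.29 and 6.86 in control (change -1.22 ± 0.26, adjusted p = 0.0724), and fell by 1.13 in the table (adjusted p = 0.0083).

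Among the 13 tested genes outside the clusters, 0 fell and 1 rose by limma on the scanner arrays, with a median of -0.22. Of all features 2.94% fell and 4.18% rose. The 1 that rose was H2afy3, which passed the brightness filter through the AEPS arrays alone. An unadjusted p under 0.05 was found for 5 of the 13, against 8437 of all 25877 features. With the block 2 fell and 3 rose, and 3 fell and 3 rose in the table. In the order of RefSeq's assembly GRCm38.p6, the widest gap in the Hist1 cluster parts the tested genes into 12, from Hist1h2bm to Hist1h2ag, and 21, from Hist1h4h to Hist1h2aa. In the first stretch 3 genes fell and in the second 10, with medians of -0.80 and -1.09. Hist1h2ak, Hist1h2an, Hist1h2ah and Hist1h2ag of the first stretch have H2A probes with a run in common, as has Hist1h2af of the second. These are not separate measurements, and the difference between the stretches was not tested. The genes with little difference were scattered among those that fell: in the order of tested genes Hist1h2be stood next to Hist1h1e.

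**Figure D4:**
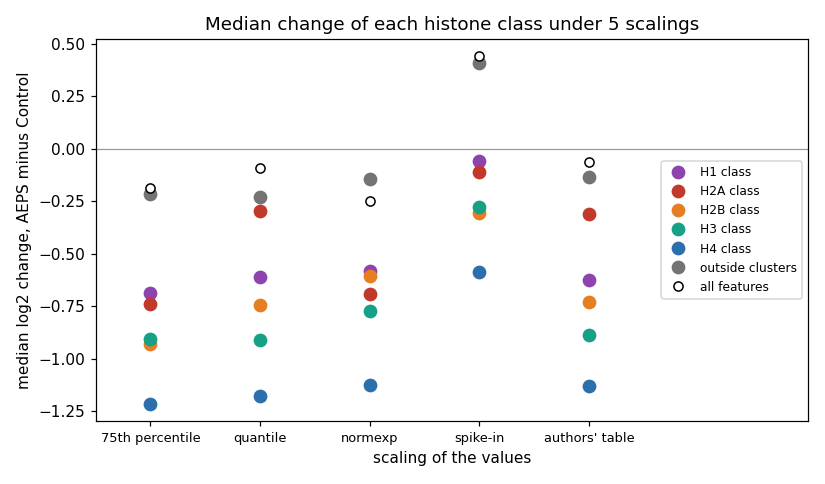
Points are median log2 changes (AEPS minus control, vertical axis) of each histone class, of the genes outside the clusters and, as open circles, of all features, under 5 scalings (horizontal axis). Under spike-in scaling every median moves up, all features to 0.44 and H4 to -0.59, and H4 lies below the other classes under each of the 5. The H3 class here includes H3f3a and H3f3b: for clustered genes alone, H3 lay below H4 under quantile normalization (-1.20 against -1.18) and in the table (-1.14 against -1.13).

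The position of the probe varied with the change, and this split was chosen after the values were seen. Of the 38 tested clustered genes for core histones, leaving out pseudogenes, 29 had a probe starting within the first 450 bases of the array's transcript, and their median change was -1.19. The other 9 had probes starting between base 483 and base 2375, and their median was -0.31 (-1.10 and -0.31 in the authors' table). Of these, 15 and 0 fell on the scanner arrays without the block, 28 and 4 with it, and 26 and 3 in the table. Of all features 2.94%, 16.8% and 16.4% were lower in these fits, in that order. The first set holds the probes with the stem-loop except that of Hist2h2aa1, and 5 of the 6 genes with the stem-loop in their probe fell, with changes of -1.66 (Hist2h2bb) to -1.13 (Hist1h3a), while Hist2h2aa1 had -0.19. The H2B genes Hist1h2be, Hist1h2bc, Hist1h2bp, Hist1h2bg and Hist2h2be were among the 9, as was the H4 gene Hist1h4i but no H3 gene. Hist2h3c2-ps was left out as a pseudogene by its array name, but RefSeq names it H3c15 and the H3 class above counts it. Its probe starts at base 957, with a change of -0.68. The H2B genes of the first set, Hist2h2bb, Hist1h2bb, Hist1h2bm and Hist1h2ba, had changes of -1.66, -1.26, -1.19 and -1.09. The order of the core class medians can therefore not be told apart from the position of the probes. H1 was left out of this split. Hist1h1a and Hist1h1b, with probes starting at bases 351 and 441, had -0.38 and -0.72. Hist1h1e, Hist1h1t and Hist1h1c, starting at bases 661, 663 and 1342, had -1.75, -1.36 and -0.29. Within 1 gene, Hist1h4i gave -1.05 on the probe starting at base 23 and -0.69 on the one starting at base 483.

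**Figure D5:**
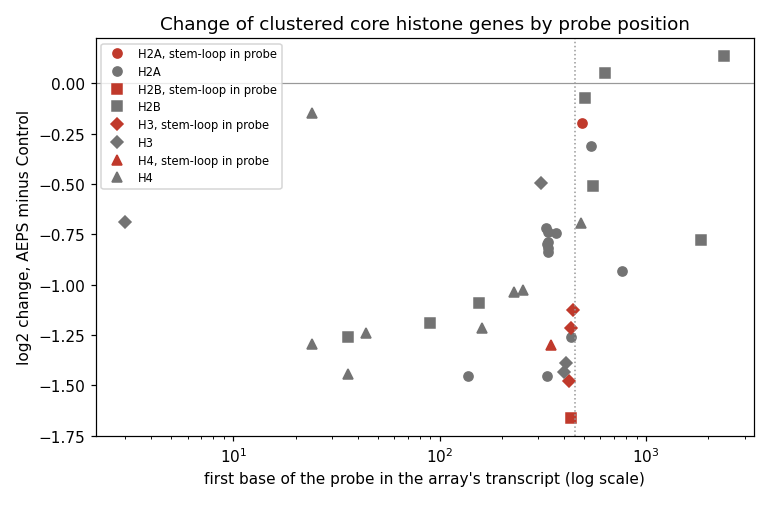
Points are the 38 clustered core histone genes, by class; the horizontal axis (log scale) is the first base of the probe in the array's transcript and the vertical axis the log2 change (AEPS minus control). Red points hold the 3′ stem-loop. The dotted line stands at base 450, right of which the changes lie between -0.93 and 0.14. None of the genes there was called without the block, and 4 fell with it.

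Promoters were compared by class, and between genes inside and outside the clusters. RefSeq promoters, 250 bases before to 50 after the start, matched 55 of the 64 genes by symbol. CCAAT (either strand) was found in 80.0% of them, against 41.1% of all 27025 promoters, TATAAA in 49.1% against 15.7%, and ATTTGCAT, the octamer, in 25.5% against 1.97%. The octamer stood in 6 of 9 clustered H2B and 7 of 14 clustered H2A promoters and in 0 of 6 H1, 0 of 6 H3 and 0 of 8 H4 promoters. CCAAT was found in all 6 H1, 14 H2A, 9 H2B and 6 H3 promoters of the clusters, and in 2 of 8 H4 promoters. A match describes these letters and is not a measured binding site.

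The 150 bases before the start are shown for the clustered genes with the largest fall of H1 and of H2B and for H3f3b, in build GRCm38.p6, 5′ to 3′ along the gene, with matches to the 3 motifs on either strand in capitals. They lie at chr13:23622559-23622708 (minus strand, Hist1h1e), chr3:96269550-96269699 (plus strand, Hist2h2bb) and chr11:116024505-116024654 (minus strand, H3f3b).
Hist1h1e: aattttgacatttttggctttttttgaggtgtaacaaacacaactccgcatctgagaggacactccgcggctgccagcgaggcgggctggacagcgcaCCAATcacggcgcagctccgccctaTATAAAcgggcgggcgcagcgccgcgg
Hist2h2bb: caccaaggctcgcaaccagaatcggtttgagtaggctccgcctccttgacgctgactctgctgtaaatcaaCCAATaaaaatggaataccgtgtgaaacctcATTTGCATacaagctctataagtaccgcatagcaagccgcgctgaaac
H3f3b: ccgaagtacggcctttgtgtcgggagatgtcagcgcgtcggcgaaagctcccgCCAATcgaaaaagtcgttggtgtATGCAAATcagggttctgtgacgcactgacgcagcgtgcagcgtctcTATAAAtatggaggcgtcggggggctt
The H3f3b window held all 3 motifs and the windows of Hist1h1e and Hist2h2bb held fewer. H3f3b is not typical of the genes outside the clusters. Of their 12 promoters, TATAAA and the octamer were each found in 1 (8.33%), that of H3f3b. In clustered genes the shares were 60.5% and 30.2%. CCAAT was found in 58.3% outside the clusters, against 86.0% inside.

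Other genes of histone supply were taken from lists named for their roles. Of 27 tested genes of histone gene transcription and mRNA 3′ end processing, 2 fell and 0 rose (median 0.10), that is 7.41% lower against 2.94% of all features. With the block 4 fell and 5 rose (14.8% and 18.5%, near the 16.8% and 13.0% of all features), and 6 fell and 8 rose in the table (22.2% and 29.6%, against 16.4% and 17.1%). Ccne1, the cyclin E that drives cells into S phase, read 3.05 and 3.30 on AEPS arrays, against 4.46 and 4.71 on control arrays (change -1.41 ± 0.18, adjusted p = 0.0362). E2f1, a transcription factor of the same transition, read 2.47 and 2.72 with AEPS, against 3.54 and 3.67 in control (change -1.01 ± 0.16, adjusted p = 0.0494). Slbp itself had 0.33 ± 0.17 (adjusted p = 0.251) and 0.37 in the table (adjusted p = 0.0394). Cdkn1a, the brightest uncalled gene of the list and an inhibitor of cyclin-dependent kinases, had 0.82 ± 0.19 (adjusted p = 0.0827) and rose with the block and in the table. Npat, the cyclin E target that activates histone genes, was too dim to be tested.

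Among 25 S phase genes 3 fell and 0 rose, that is 12% lower against 2.94% of all features. The median of the list was -0.21, near the -0.19 of all features. With the block 8 fell and 1 rose (32.0% lower, against 16.8%), and 8 fell and 2 rose in the table (32.0% lower, against 16.4%). Tk1, thymidine kinase, read 4.98 and 5.09 on AEPS arrays, against 6.43 and 6.53 on control arrays (change -1.45 ± 0.14, adjusted p = 0.0257). Cdc6, which loads the replicative helicase, read -0.17 and -0.01 with AEPS, against 1.32 and 1.32 in control (change -1.41 ± 0.14, adjusted p = 0.0271), and Mcm5 of that helicase fell by 0.88 (adjusted p = 0.0466). Pcna, the sliding clamp of DNA polymerase, had -0.10 ± 0.15 (adjusted p = 0.692), and Mcm6, the brightest uncalled gene of the list, -0.21 ± 0.17 (adjusted p = 0.427). Cdc45, another part of the helicase and the gene of the list that rose with the block, had 0.49 ± 0.15 (adjusted p = 0.124 without the block and 0.0446 with it) and rose in the table (adjusted p = 0.0104).

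Of 26 tested histone chaperone and import genes 0 fell and 1 rose (median 0.23), which at 3.85% is near the 4.18% of all features. With the block 2 fell and 8 rose (7.69% and 30.8%, against 16.8% and 13.0% of all features), and 4 fell and 11 rose in the table (15.4% and 42.3%, against 16.4% and 17.1%). Hat1, which acetylates newly made H4, read 3.14 and 3.16 on AEPS arrays, against 2.34 and 2.20 on control arrays (change 0.88 ± 0.14, adjusted p = 0.0471). Npm1, a histone chaperone of the nucleolus and the brightest uncalled gene of the list, had 0.50 ± 0.20 (adjusted p = 0.183 without the block and 0.0408 with it), and it rose in the table by 0.57 (adjusted p = 0.00312). Cenpa, the centromeric H3 whose name the rule does not cover, had -0.31 ± 0.13 (adjusted p = 0.199). Under spike-in scaling the medians of the 3 lists were 0.73, 0.41 and 0.85 in the order given here, against 0.44 over all features.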

How the data were processed

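Total RNA of RAW264.7 cells was labelled with Cy3 per the labels' protocols and read with Agilent Feature Extraction per the submitters' processing notes. The deposited scanner files hold intensity values (processed signal, mean signal and local background) for each spot, not normalized between arrays, per the file headers. The authors' deposited table holds 1 column per sample, close to log2 of the processed signal; all 6 columns had a median of 4.72 over non-control probes. Its offset and normalization, and the array's genome build, are not given in the sources used here.

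Control spots and outlier spots were left out. From log2 of the processed signal the 75th percentile of the same array was subtracted, whose signal was 575 and 488 on AEPS arrays and 401 and 287 on control arrays. Testing needed a probe to be well above background on both arrays of 1 group or more (30380 probes). H2afy3 passed through the AEPS group alone, and Hist3h2bb-ps through the control group alone. Each gene was represented by its brightest tested probe. Groups were compared with limma 3.58.1 (R 4.3.3; lmFit and eBayes), and p-values of all 25877 features were adjusted together by Benjamini-Hochberg, with a threshold of 0.05. The authors' table was fitted likewise.

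In deviations from the group mean, samples of the same number correlated at 0.55, 0.35 and 0.39 in the table, all above 0.1, against -0.48 to 0.23 for other pairs. The numbers therefore pair the samples, and fits with the slide or replicate as a block are given where they change the call of a gene or count. Alternatives were normexp, quantile and spike-in scaling, other filters, probes averaged or kept apart, and leaving out each array or sample.

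On simulated data for 25841 genes, 2 against 2 arrays recovered 0 of 200 changed genes; with 2000 changed, 41.4% of the 2-fold changes and 76.0% of the 4-fold ones were found, beside 52 false calls.

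The members, lists and splits were chosen with earlier results of these data known. The text names every member past the threshold on the scanner arrays or in the table, every tested gene outside the clusters, the extremes and brightest of each class and cluster, Slbp, Npat, Cenpa and Pcna, and of each list at most 4 called genes and the brightest uncalled one. Cdc45, the single genes with small changes and the multi-probe values were chosen after they were seen.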

Additional observations from a re-analysis of the deposited data

How the results depend on the processing

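For AEPS against control over all features, counts at an adjusted p of 0.05 are given as features called in all, then histone genes lower, by class (H1, H2A, H2B, H3, H4), by cluster (Hist1, Hist2), lower and higher outside the clusters, and list genes called (transcription and processing, chaperones, S phase). On the scanner arrays 1841 features were called, with 16 histone genes lower (1, 3, 4, 5 and 3 by class, 13 and 3 by cluster, 0 and 1 outside) and 2, 1 and 3 list genes. With normexp 4555 features were called, with 33 histone genes lower (3, 11, 5, 6 and 8 by class, 22 and 7 by cluster, 2 and 1 outside) and 7, 4 and 7 list genes. With quantile normalization 3152 features were called, with 23 histone genes lower (2, 4, 4, 6 and 7 by class, 17 and 4 by cluster, 0 and 0 outside) and 6, 3 and 8 list genes. With spike-in scaling 2924 features were called, with 1 histone gene lower (1, 0, 0, 0 and 0 by class, 1 and 0 by cluster, 0 and 1 outside) and 3, 5 and 0 list genes. With probes required to pass on all 4 arrays, 2231 features were called, with 19 histone genes lower (2, 3, 5, 5 and 4 by class, 13 and 5 by cluster, 1 and 0 outside) and 4, 4 and 5 list genes. With probes of a gene averaged 1808 features were called, with 17 histone genes lower (1, 3, 4, 5 and 4 by class, 13 and 4 by cluster, 0 and 1 outside) and 2, 0 and 3 list genes. With each probe apart 2804 features were called, with 22 histone genes lower (2, 4, 4, 5 and 7 by class, 16 and 5 by cluster, 1 and 2 outside). With the slide as replicate block 7704 features were called, with 38 histone genes lower (4, 12, 6, 8 and 8 by class, 26 and 8 by cluster, 2 and 3 outside) and 9, 10 and 9 list genes. By the authors' table, 8654 features were called, with 37 histone genes lower (5, 11, 5, 8 and 8 by class, 24 and 8 by cluster, 3 and 3 outside) and 14, 15 and 10 list genes. In the table with the replicate block 12887 features were called, with 43 histone genes lower (7, 14, 6, 8 and 8 by class, 28 and 8 by cluster, 5 and 4 outside) and 15, 19 and 15 list genes. In the table with its replicate 3 left out in both groups, an alternative added after seeing the data, 2681 features were called, with 21 histone genes lower (2, 4, 4, 6 and 5 by class, 16 and 4 by cluster, 0 and 0 outside) and 5, 2 and 6 list genes. Without a filter on dim probes limma called 0 features and 0 histone and list genes, with 7334 of 47990 features at an unadjusted p under 0.05. Keeping outlier spots gave 1838 features and left the other counts as they were. Leaving out each scanner array in turn, 7 to 807 features were called, with 0 to 3 histone genes lower (0 to 1, 0, 0 to 2, 0 and 0 by class, 0 to 1 and 0 to 1 by cluster, 0 and 0 outside) and 0, 0 and 0 list genes. Leaving out each sample of the authors' table in turn, 5607 to 7434 features were called, with 27 to 34 histone genes lower (3 to 5, 6 to 9, 4 to 5, 6 to 7 and 8 by class, 18 to 22 and 4 to 7 by cluster, 2 to 3 and 2 to 3 outside) and 8 to 12, 10 to 12 and 9 list genes. 

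Changes of the named genes that were opposite in sign to the scanner value were as follows (log2, AEPS minus control). Spike-in scaling gave H1foo 0.57, H2afb2-ps 0.11, H2afv 0.41, H2afx 0.26, H2afy2 0.39, H2afz 0.54, Hist1h1a 0.24, Hist1h1c 0.34, Hist1h2ae 0.32, Hist1h2bg 0.12, Hist1h2bp 0.55, Hist1h3d 0.13, Hist1h4h 0.48, Hist2h2aa1 0.43, Pcna 0.53, Mcm6 0.41, Cenpa 0.32. Normexp gave H2afy3 -0.062, Hist1h2be -0.032, and quantile normalization gave H1foo 0.063, H2afz 0.21, Hist1h2bp 0.13. The authors' table gave H1foo 0.027, H2afz 0.21, Hist1h4h 0.010, with or without the replicate block, and without its replicate 3 it gave H1foo 0.075, H2afz 0.22, Hist1h2bp 0.14. Over the left-out arrays and samples, the changes that crossed 0 ran over these ranges: H1foo -0.22 to 0.12, H2afb2-ps -1.07 to 0.049, H2afz -0.22 to 0.25, Hist1h2bc -0.028 to 0.13, Hist1h2be -0.16 to 0.43, Hist1h2bp -0.31 to 0.16, Hist1h4h -0.33 to 0.11, Hist2h2aa1 -0.42 to 0.027, Pcna -0.18 to 0.0033. The cause of these differences was not tested.

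The lone array left in a group was assumed to vary like the other group. With 2 arrays per group, a gene without a call is not shown to be unchanged.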
